A study of Mus musculus with 8 samples.

Results

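The genes described here code for the proteins of the cytosolic ribosome. They were chosen by symbol: a protein-coding mouse gene counted as a member if its symbol had the form Rpl or Rps plus a number (with a, x or l allowed after it), or was Rplp0, Rplp1, Rplp2, Rpsa or Rpl22l1. The rule gave 82 genes of the 27179 gene IDs in the count table, 31 of the small subunit and 51 of the large subunit. RNA had been sequenced from plasmacytoid dendritic cells (pDC) and conventional dendritic cells (cDC) of the spleen of C57BL/6 mice, all of which carried a leukemia. The mice had received panobinostat, an inhibitor of histone deacetylases, or vehicle (dextrose in water) for 2 days. The 4 groups were panobinostat pDC, vehicle pDC, panobinostat cDC and vehicle cDC, with 2 libraries each, and each library came from cells pooled from 3 to 6 mice. The series' design text calls the libraries biological replicates. The extraction text in the labels names leukemia cells as the sorted cells, while titles and cell type labels name pDC and cDC.

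Each ribosomal protein is needed in about equal number in a finished ribosome, and their genes are transcribed at high levels in all cell types. Their mRNAs are short and typically begin with a C followed by a run of pyrimidines (a TOP start), through which mTOR and Larp1 control their translation together. Many ribosomal protein genes have processed pseudogenes, intronless copies of the mRNA elsewhere in the genome, and reads from such copies can be hard to place. Dendritic cells adjust translation during activation, and pDC are known for very high secretion of type I interferon.

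Rpl31 was the gene of the group that differed most clearly between the cell types, so its coding start is shown beside those of its copies. Of its 5 named copies in the count table, the 3 with at least 1000 counts in all are given. The lines give the first 60 coding bases of Rpl31, a large-subunit protein near the exit tunnel (chr1:39367851-39371911, plus strand), and the aligned bases of Rpl31-ps9 (chr1:129801387-129801764, minus), Rpl31-ps11 (chr3:94604408-94604784, minus) and Rpl31-ps12 (chr16:16819749-16820123, minus), all in GRCm38, with any difference from Rpl31 in capitals.
Rpl31: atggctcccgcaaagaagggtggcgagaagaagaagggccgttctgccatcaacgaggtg
Rpl31-ps9: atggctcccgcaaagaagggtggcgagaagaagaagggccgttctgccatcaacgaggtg
Rpl31-ps11: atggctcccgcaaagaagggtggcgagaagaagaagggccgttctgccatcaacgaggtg
Rpl31-ps12: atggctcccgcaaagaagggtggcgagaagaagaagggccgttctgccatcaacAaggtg
Over the aligned coding sequence, Rpl31-ps9 matched Rpl31 at 376 of 378 bases (99.5%), Rpl31-ps11 at 373 of 377 (98.9%) and Rpl31-ps12 at 371 of 375 (98.9%). A read from any of these 4 loci could therefore have been assigned to another.

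Rps27 (small-subunit zinc finger protein) is shown with its near copies because its mean level per length over the 8 libraries was the highest of all members. Rps27rt (chr9:114982366-114982739, minus strand) lies outside the symbol rule, and Rps27l (chr9:66946086-66949516, plus strand) is a member. Capitals mark differences from Rps27.
Rps27: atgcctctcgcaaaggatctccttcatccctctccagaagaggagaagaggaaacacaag
Rps27rt: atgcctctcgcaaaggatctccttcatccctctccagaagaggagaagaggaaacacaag
Rps27l: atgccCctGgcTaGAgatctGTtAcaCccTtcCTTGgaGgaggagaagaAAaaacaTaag
Rps27rt was identical to Rps27 over all 255 coding bases, while Rps27l matched at 193 of 253 aligned bases (76.3%). Counts of Rps27 and Rps27rt thus cannot be told apart by coding sequence, whereas those of Rps27l largely can.

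The windows around the annotated starts of 5 members show where a TOP-like run, here a C followed by at least 4 C or T, lies relative to the start. Only the longest run of a window is in capitals. Shorter runs that also meet this definition, before the start in Rps27 and across it in Rpl31, are left in lower case. Each line is 30 bases of RefSeq GRCm38.p6 on the gene's own strand, with the annotated start at base 16 and the longest run in capitals: Rps27 chr3:90213634-90213663 (minus), Rps6 chr4:86857353-86857382 (minus), Rpl22l1 chr3:28805493-28805522 (plus), Rpl4 chr9:64173372-64173401 (plus) and Rpl31 chr1:39367836-39367865 (plus).
Rps27: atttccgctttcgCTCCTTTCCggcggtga
Rps6: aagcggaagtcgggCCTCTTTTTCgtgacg
Rpl22l1: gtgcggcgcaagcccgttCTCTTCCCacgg
Rpl4: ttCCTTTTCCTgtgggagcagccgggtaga
Rpl31: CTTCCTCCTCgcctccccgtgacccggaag
RefSeq promoter windows were found for 62 members. A TOP-like run lay within these 30 bases in 69.4% of the members with a window, against 40.3% of the 27025 genes in the promoter table. The annotated first base was itself a C followed by at least 4 C or T in 22.6% of members and 3.0% of all genes. In the 250 bases before the start, on either strand, CCGGAA was present in 38.7% of members and 13.6% of all genes, and GGGCGG in 31 of the 62 members, against 35.4% of all genes. These are letter matches in fixed windows, not measured sites.

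Of the 82 members, 81 had counts and passed the filter on low counts. Rpl10l, a retrogene known from testis, was at 0 counts in all 8 libraries and was not tested. Levels are given as CPM, counts scaled to the TMM-adjusted library size. Per kilobase of transcript, the mean level over all libraries was highest for Rps27 (3405 CPM per kb), Rpl32 (2556) and Rps14 (2280). The order differed between cell types: Rps27 had 6377 CPM per kb in panobinostat pDC and 3279 in vehicle pDC, but in cDC Rpl32 stood above it, at 2822 against 2119.5 with panobinostat and 2285 against 1844 with vehicle. Among abundant subunits of known function, Rplp0 of the ribosomal stalk averaged 1388 CPM per kb, Rps6, the substrate of the S6 kinases, 1545, and Rpl41, whose protein has only 25 residues, 1627. Rpl23 averaged 326 CPM per kb, Rpsa (also known as the laminin receptor) 257 and Rpl22 53.2. These values use the length of a single annotated transcript per gene, 1059 bases for Rpl23, 1938 for Rpsa and 2051 for Rpl22. The order therefore depends in part on which transcript was taken.

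At the low end, 4 tested members stayed under a mean of 10 CPM. Rpl39, a protein of the exit tunnel, had 33 and 40 counts in panobinostat pDC and 24 and 36 in vehicle pDC. In cDC it had 36 and 47 counts with panobinostat and 26 and 37 with vehicle. Rpl39 shared 16.2% of its sequence windows with transcripts of other genes, 8 in number. How multiply aligned reads were counted is not stated, and whether reads of Rpl39 were lost in counting was not tested. Its counts are therefore not read as a measure of how strongly Rpl39 is expressed. Rpl39l, the paralogue of Rpl39 known from male germ cells, had 2 counts over the 4 pDC libraries and 40 over the 4 cDC libraries. Rpl3l, the muscle paralogue of Rpl3, had 55 and 0 counts in panobinostat pDC, 25 and 16 in vehicle pDC, 4 and 5 in panobinostat cDC and 7 and 6 in vehicle cDC. The high and the low value of Rpl3l within panobinostat pDC were farther apart than the means of any pair of groups. Rpl32l had 173 counts over the pDC libraries and 226 over the cDC libraries.

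Whole-series facts bear on all that follows. Total counts were 13124861 to 20657429 per library. Panobinostat pDC replicate 2 was the shallowest library and stood apart, with 10745 genes detected against 14927 to 19950 in the other 7. The 16 pDC markers summed to 16880 to 29520 CPM in pDC libraries and 649.7 to 955.0 CPM in cDC libraries, and 15 of the 16 were called higher in pDC under both treatments. The 16 cDC markers summed to 2166 to 3754 CPM in pDC and 4131 to 5598 CPM in cDC. In pDC against cDC their median log2 fold change was -2.4 under panobinostat and -3.67 under vehicle, with 3 above 0 under each treatment. Of these markers, 9 were called lower in pDC under panobinostat and 8 under vehicle, while Cd209a was called higher under both. Summed markers of other cells were also present. Neutrophil and monocyte genes summed to 3551 to 6935 CPM in panobinostat pDC, 2085 to 3834 in vehicle pDC, 318.6 to 341.0 in panobinostat cDC and 216.3 to 279.6 in vehicle cDC. Of the 8 tested genes of that list, only 3 had a log2 fold change above 0 in pDC against cDC under each treatment, with medians of -3.62 under panobinostat and -3.84 under vehicle. Ly6c2 and Ccr2 were called higher in pDC under both treatments and F13a1 lower under panobinostat, and under vehicle DESeq2 called 4 lower, among them Csf3r and Csf1r. The 12 NK cell markers summed to 597.1 to 1338 CPM in panobinostat pDC, 180.8 to 278.8 in vehicle pDC, 222.2 to 573.8 in panobinostat cDC and 151.7 to 224.9 in vehicle cDC. Of these 12 genes, 2 had a log2 fold change above 0 in pDC against cDC under panobinostat and 1 under vehicle. Their medians were -4.69 and -3.02. Klrd1 was the only NK marker called higher in pDC, under both treatments, and Il2rb was called lower under panobinostat. T cell markers summed to 580.0 to 803.3 CPM in panobinostat pDC, 1128 to 1698 in vehicle pDC and 136.5 to 193.5 in cDC, and erythroid markers to 2449 to 7223 in panobinostat pDC, 1279 to 2676 in vehicle pDC and 401.6 to 2127 in cDC. Of the 11 T cell markers tested, 6 were above 0 in pDC against cDC under panobinostat (median 0.45) and 4 under vehicle (median -0.98). Cd4 and Cd8b1 were called higher in pDC under both treatments, and Cd28 under panobinostat. B cell markers summed to 133.2 to 458.6 CPM in pDC and 232.8 to 668.7 in cDC, and plasma cell markers to 510.9 to 1231 in pDC and 315.1 to 527.7 in cDC. Of the 12 B cell markers, 5 were above 0 in pDC against cDC under panobinostat (median -0.29) and 1 under vehicle (median -1.79). Cd22 was called lower under both treatments and Cd79b higher under panobinostat. Of the 7 plasma cell markers tested, 4 were above 0 under each treatment, and Sdc1 and Mzb1 were called higher under panobinostat. Of the 9 erythroid markers tested, 8 were above 0 under panobinostat and 9 under vehicle, with 0 called. No marker in the table was at 0 in all libraries, and the part of these cells in the ribosomal protein values was not tested. In bulk RNA, a change in the share of a cell type and a change in RNA per cell cannot be told apart.

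**Figure D1:**
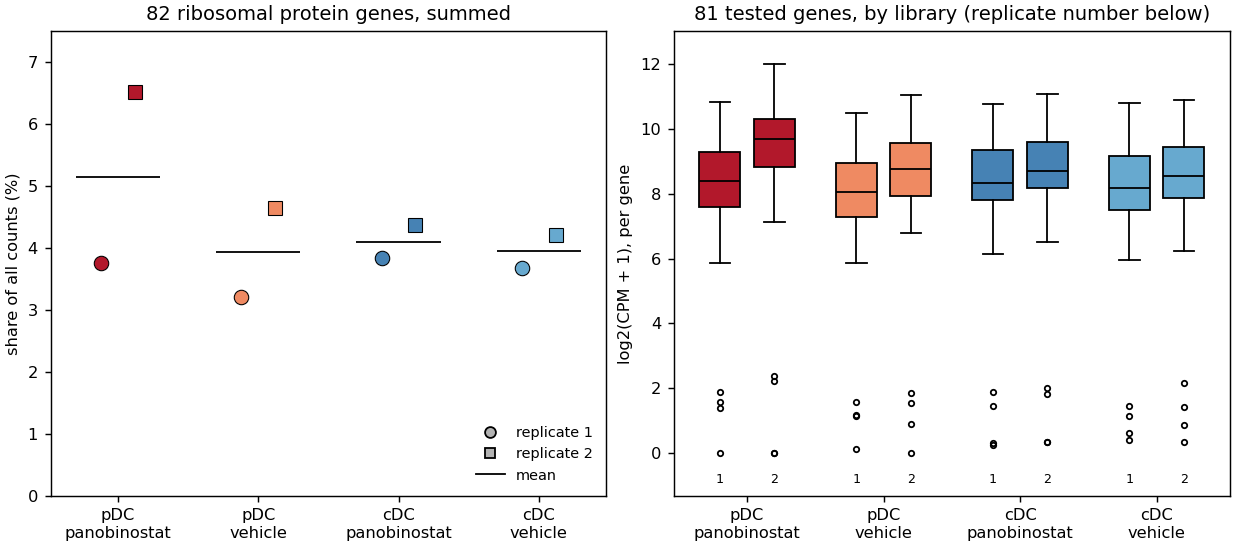
Left, share of all counts taken by the 82 ribosomal protein genes (y axis, percent) in each library, with circles for replicate 1, squares for replicate 2 and a line at the mean of 2. Right, log2(CPM + 1) of the 81 tested genes per library, as boxes from the lower to the upper quartile with the median, whiskers to 1.5 times that range and single genes beyond it. Replicate 2 lies above replicate 1 in every group, most in panobinostat pDC, with 6.52% against 3.76%.

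Ribosomal protein genes took 3.76% and 6.52% of all counts in panobinostat pDC, against 3.21% and 4.64% in vehicle pDC. In cDC they took 3.84% and 4.36% with panobinostat, against 3.68% and 4.21% with vehicle. The means were 5.14% ± 1.95 in panobinostat pDC, 3.93% ± 1.01 in vehicle pDC, 4.10% ± 0.373 in panobinostat cDC and 3.95% ± 0.373 in vehicle cDC (SD, n = 2). The groups overlapped in both cell types, and no test was made, since 2 libraries against 2 cannot give an exact permutation p below 0.33. Replicate 2 had the higher share in all 4 groups. The small subunit supplied 35.9% to 39.5% of the members' counts, with the highest share in panobinostat pDC replicate 2.

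Replicates of the same group differed for nearly every member. In panobinostat pDC, 79 of 81 members were higher in replicate 2, by a median of 1.13 log2 units, while the median of all other genes was -0.33. In vehicle pDC the member median was 0.68 (79 of 81 higher), in panobinostat cDC 0.31 (80 of 81) and in vehicle cDC 0.28 (79 of 81). In panobinostat pDC the size of the difference went with the length of the coding sequence. Among other genes, replicate 2 minus replicate 1 of panobinostat pDC had a median of 0.75 for coding sequences up to 300 bases, 0.35 for those above 300 and up to 600, and -1.53 for those over 3000. Members with coding sequences above 300 and up to 600 bases, 47 in number, had a median of 1.17, above the other genes of that length. Over the 77 members with at least 10 CPM, the difference correlated with log2 coding length with r = -0.64 (Spearman -0.74) in panobinostat pDC, which is a description across genes that share both libraries. In the other groups it was r = -0.16 (Spearman -0.62) in vehicle pDC, -0.22 (-0.24) in panobinostat cDC and -0.23 (-0.22) in vehicle cDC. The replicate difference of other genes also fell with length in vehicle pDC, from a median of 0.46 up to 300 bases to -0.36 over 3000. In cDC these medians went from 0.11 to -0.07 with panobinostat and from 0.17 to -0.13 with vehicle.

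The members at the ends of this order were short and long. Rps29, with 56 residues, was higher by 1.84 log2 units in panobinostat pDC replicate 2 than in replicate 1, and Rpl22l1 by 1.76, Rps28 by 1.67 and Rps27 by 1.55. Rpl3 (403 residues) was higher by 0.49, Rplp0 by 0.62 and Rpl4 (419 residues) by 0.72. Rpl12, at 165 residues, was an exception with 0.40, while Rps10, also at 165 residues, was higher by 1.51. Rpl41, the shortest member at 25 residues, was higher by 1.08, below the members' median of 1.13. The higher level of short transcripts in panobinostat pDC replicate 2 touches every comparison that uses this library, so the members' medians and calls are given with and without it.

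**Figure D2:**
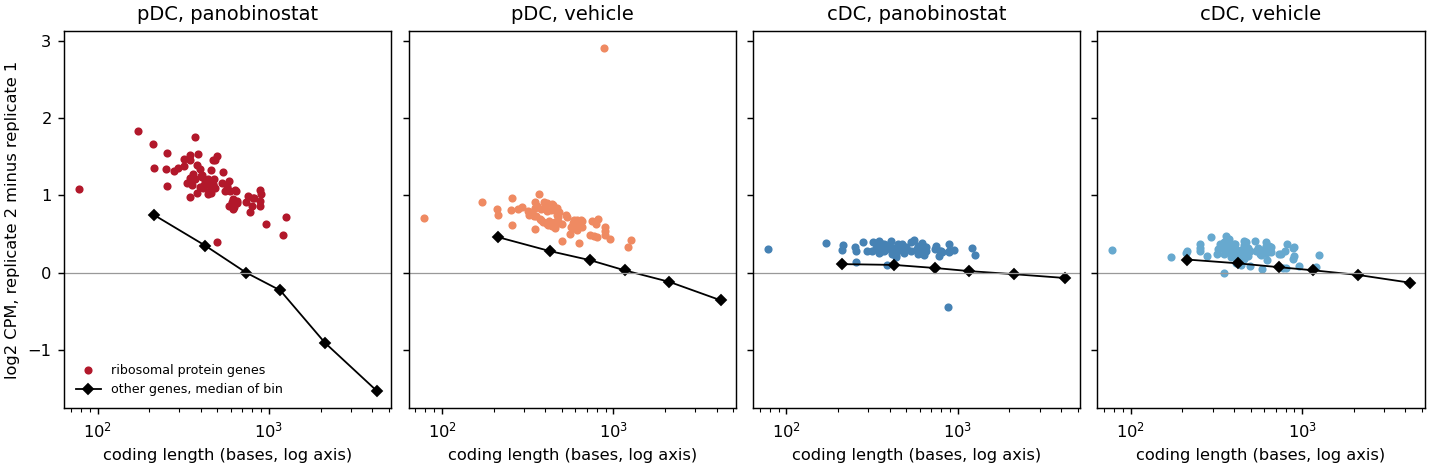
Log2 CPM of replicate 2 minus replicate 1 (y axis) against coding length in bases (x axis, log scale) in each group. Coloured points are the 77 ribosomal protein genes with at least 10 CPM, and black diamonds are medians of the other tested genes in 6 length bins, drawn at the middle of the bin. The diamonds fall with length in pDC, from 0.75 to -1.53 in panobinostat pDC, and most members lie above them.

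The first comparison asked what panobinostat did to these genes in pDC. The members stood higher as a group: their median log2 fold change was 0.62, and 79 of 81 were above 0, against a median of -0.14 over all 14238 genes tested. When GC content and transcript length were offset in each library, the member median was 0.34 and that of all genes 0.36, so the members no longer stood above the other genes. These offsets, here and below, were fitted on the same libraries with the members included. They therefore cannot separate an effect of length from a shift of the members. No single member passed the test (edgeR's quasi-likelihood F test, Benjamini-Hochberg adjusted p of 0.05), where 0.0913% of all genes did. One member, Rpl6, had an unadjusted p under 0.05, and DESeq2 and limma-voom called 0 members as well. Rpl6, a large-subunit protein, had 854 and 1631 CPM in panobinostat pDC, against 543 and 791 in vehicle pDC. Its log2 fold change was 0.90 ± 0.36 (SE, adjusted p = 0.325), and the libraries of its groups did not overlap. Rpl3 and Rpl17 were the only other members without overlap in that direction, 3 in all, against 15.7% of all genes.

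Other members with the smallest p, none called, were also higher in panobinostat pDC. Rpl23 had 331 and 747 CPM in panobinostat pDC, against 210 and 335 in vehicle pDC, with a log2 fold change of 0.98 ± 0.42 (SE, adjusted p = 0.346). Panobinostat replicate 1 lay just below vehicle replicate 2. Rpl22l1, the paralogue of Rpl22, had 116 and 394 CPM in panobinostat pDC, against 67.6 and 137 in vehicle pDC (log2 fold change 1.32 ± 0.60, adjusted p = 0.369). Rpl22 itself had a log2 fold change of 0.62 ± 0.49 (adjusted p = 0.575). Values for the remaining smallest p were 0.87 for Rpl17, 0.74 for Rps4x and 0.85 for Rps27l, with adjusted p of 0.356, 0.379 and 0.379. Each was smaller without panobinostat pDC replicate 2, where the log2 fold change was 0.30 for Rpl6, 0.22 for Rpl23, 0.12 for Rpl22l1, 0.19 for Rpl17, 0.19 for Rps4x, 0.13 for Rps27l and -0.40 for Rpl22, again with no call.

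The median depended on which pDC libraries were used. Replicate 2 was the higher library for nearly every member in both pDC groups, so a fit without a single pDC library is unbalanced. Without panobinostat pDC replicate 2 the median was -0.09, with 28 of 81 members above 0 and 0 called, where 4.78% of genes were called. Without panobinostat pDC replicate 1 it was 1.09, with 56 members called higher and 1 lower, where 55.3% of all genes were called. With one vehicle pDC library left out, it was 0.31 (replicate 1 omitted) or 0.99 (replicate 2 omitted), with 0 members called. Libraries with the same number can also be set side by side, although the labels do not say what a number shares. Panobinostat pDC was higher than vehicle pDC of the same number for 74 members in pair 1 (median 0.34, all genes 0.02) and for 78 in pair 2 (median 0.76, all genes -0.60). In all, 72 of 81 members were higher in both pairs, where 25.3% of all genes were, and 0 were lower in both pairs, where 34.8% were.

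**Figure D3:**
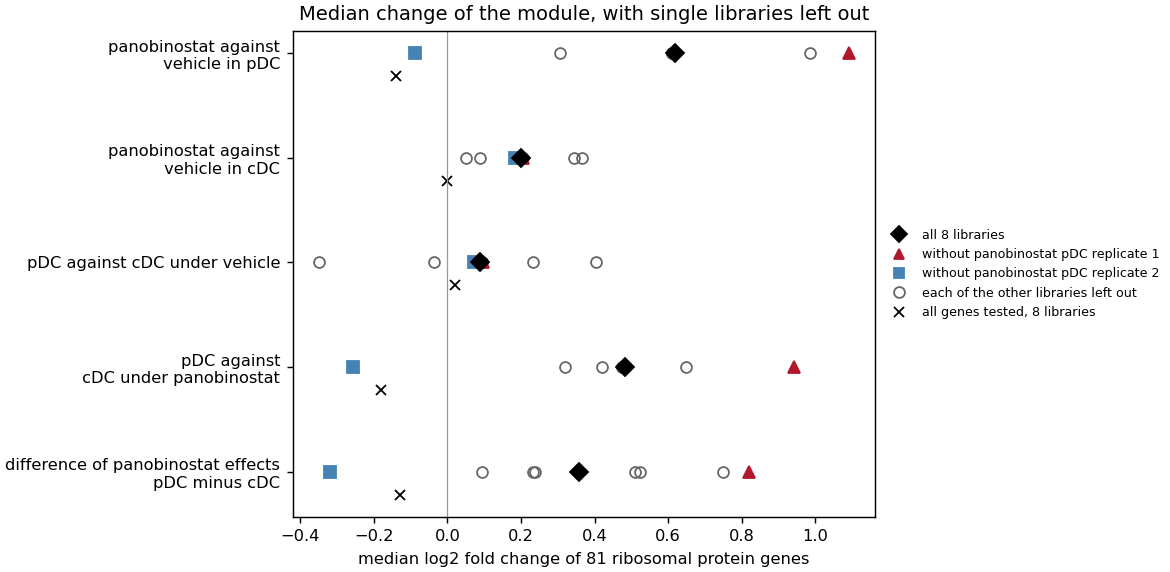
Median log2 fold change of the 81 ribosomal protein genes (x axis) in 5 comparisons (rows). Diamonds use all 8 libraries, triangles leave out panobinostat pDC replicate 1, squares leave out panobinostat pDC replicate 2, circles leave out each other library in turn, and crosses are medians of all genes tested. For panobinostat against vehicle in pDC the diamond is at 0.62, the triangle at 1.09 and the square at -0.09.

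In cDC, the members' median log2 fold change for panobinostat against vehicle was 0.20, with 75 of 81 members above 0, against 0.00 over all genes. No member was called, where 0.0% of all genes were, 0 had an unadjusted p under 0.05, and DESeq2 and limma-voom called 0 members. The median was 0.05 without panobinostat cDC replicate 2 (56 of 81 above 0), 0.35 without panobinostat cDC replicate 1, 0.09 without vehicle cDC replicate 1 and 0.36 without vehicle cDC replicate 2. With libraries scaled by their total counts it was 0.06, with 61 of 81 above 0, against -0.13 over all genes. With GC and length offsets it was 0.22, with 76 of 81 above 0, against 0.03 over all genes. Panobinostat was higher in both same-numbered pairs for 70 of 81 members, where 34.4% of all genes were, and lower in both for 3, where 30.1% were. The pair medians were 0.20 and 0.22. All libraries of panobinostat cDC lay above those of vehicle cDC for 18 members, against 22.2% of all genes, and below them for 2 (Rpl39l and Rpl3l), against 18.8%. Rpl39l passed the filter on low counts only through vehicle cDC, and Rpl3l had few counts in cDC, so nothing is read from these 2.

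The members with the smallest p in cDC were each shifted little, apart from the rarely counted Rpl39l (-1.42 ± 1.05). Rpl12 had 114 and 144 CPM in panobinostat cDC, against 93.7 and 114 in vehicle cDC, with a log2 fold change of 0.31 ± 0.25 (SE, adjusted p = 1.0). Rpl8 had a log2 fold change of 0.33 ± 0.30, Rplp2 of the ribosomal stalk 0.40 ± 0.41, Rpl31 0.37 ± 0.42 and Rpl28 0.33 ± 0.39, each with an adjusted p of 1.0. The difference between the panobinostat effects, pDC minus cDC, had a member median of 0.36, and 76 of 81 were above 0, against -0.13 for all genes. No member was called for it, where 0.00702% of all genes were, 0 had an unadjusted p under 0.05, and DESeq2 and limma-voom called 0. The smallest p belonged to Rps27l (0.96 ± 0.57, adjusted p = 0.777), followed by Rpl22l1 (1.07), Rpl6 (0.64), Rps25 (0.81), Rps7 (0.62) and Rpl23 (0.70). In same-numbered pair 1, which holds replicate 1 libraries only, the members' medians for panobinostat were 0.34 in pDC and 0.20 in cDC. In pair 2 they were 0.76 and 0.22. Replicate 2 was the higher library for nearly every member in each group. Leaving out only panobinostat pDC replicate 2 is thus unbalanced and cannot decide whether the direction of the difference rested on that library. Without panobinostat pDC replicate 2 the median of this difference was -0.32 with 0 members called (1.85% of all genes). It was 0.82 without panobinostat pDC replicate 1, with 5 members called higher and 1 lower (43.4% of all genes). With GC and length offsets it was 0.11, against 0.35 for all genes.

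The next comparison set pDC against cDC under each treatment. Under vehicle the members' median log2 fold change was 0.09, with 53 of 81 above 0, against 0.02 over all genes, and it turned to -0.05 with RLE scaling (all genes -0.11). Rpl31 was the only member called, where 9.73% of all genes were. With panobinostat pDC replicate 2 left out, Rpl31 was still called under vehicle, where 36.1% of all genes were. Rpl3l and Rpl39l were also past the threshold there, but Rpl3l passed the filter on low counts only through pDC and Rpl39l only through vehicle cDC, so nothing is read from their calls between the cell types. Under panobinostat the median was 0.48, with 74 of 81 above 0, against -0.18 over all genes, and Rpl31 was again the only member called, where 18.0% of all genes were. Replicate 2 was the higher library for nearly every member in each group, so leaving out panobinostat pDC replicate 2 alone is unbalanced. In replicate 1 the members' median log2 CPM was 8.37 in panobinostat pDC and 8.33 in panobinostat cDC. In replicate 2 it was 9.67 and 8.70. Without panobinostat pDC replicate 2, the median log2 fold change under panobinostat was -0.26, and 18 of 81 members were above 0. It was 0.94 without panobinostat pDC replicate 1, with 44 members called higher (65.9% of all genes). With GC and length offsets it was 0.13, below the 0.48 of all genes. The libraries did not overlap, pDC above cDC, for 5 members under vehicle (35.1% of all genes) and 9 under panobinostat (24.7%), and pDC below cDC for 5 under vehicle (35.5%) and 2 under panobinostat (38.0%). Rpl3l is counted among those above under vehicle and Rpl39l among those below under both treatments, and nothing is read from either.

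Rpl31 had 731 and 1495 CPM in panobinostat pDC, 579 and 1023 in vehicle pDC, 237 and 290 in panobinostat cDC and 179 and 230 in vehicle cDC. All 4 pDC libraries lay above all 4 cDC libraries. Under vehicle the log2 fold change was 1.97 ± 0.43 (SE, edgeR adjusted p = 0.0400) and under panobinostat 2.08 ± 0.43 (adjusted p = 0.0263), with means of 801 ± 314 CPM in vehicle pDC and 204 ± 36.0 in vehicle cDC (SD, n = 2 each). Panobinostat against vehicle gave no call for Rpl31 in either cell type.

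The direction held in all alternatives run, with log2 fold changes of 1.47 to 2.33 under vehicle and 1.41 to 2.50 under panobinostat, but the call did not. Under vehicle it was lost with offsets for GC content and length (adjusted p = 0.0633). It was also lost without vehicle pDC replicate 1 or 2, or without any 1 of the 4 cDC libraries, where adjusted p lay between 0.0877 and 0.250. Under panobinostat it was lost with limma-voom (adjusted p = 0.211), with only the groups compared (0.126) and without any 1 of the cDC libraries (0.0661 to 0.174). It was still called without panobinostat pDC replicate 2, at 1.41 ± 0.36 (adjusted p = 0.0278). The adjusted p over all alternatives ran from 0.000873 to 0.250 under vehicle and from 0.000868 to 0.211 under panobinostat.

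**Figure D4:**
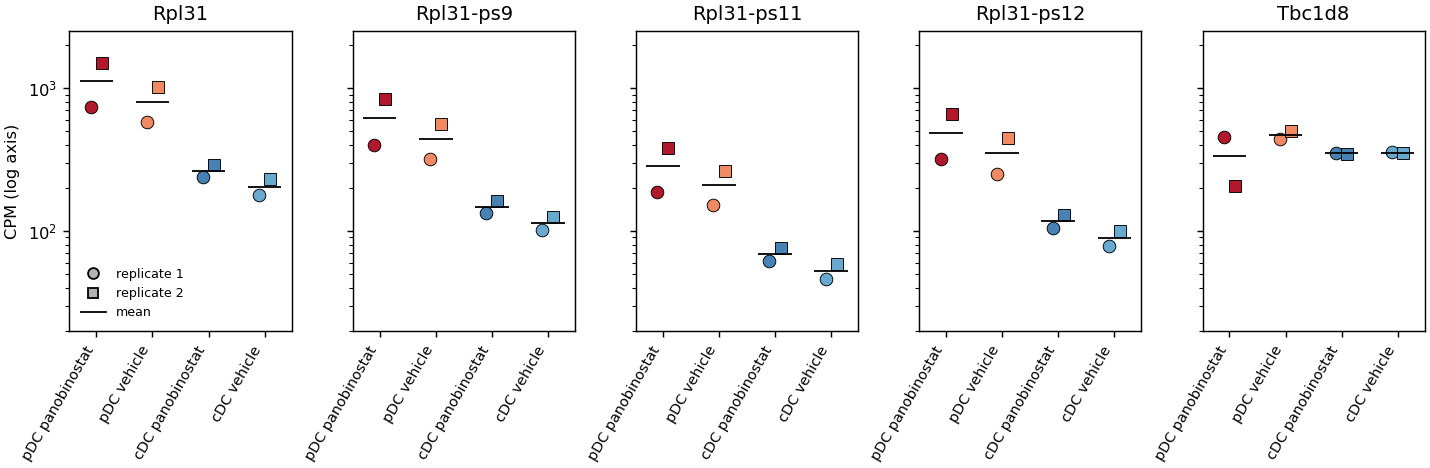
CPM (y axis, log scale) of Rpl31, its copies Rpl31-ps9, Rpl31-ps11 and Rpl31-ps12, and the overlapping gene Tbc1d8 in each library, with circles for replicate 1, squares for replicate 2 and a line at the mean of 2. The 4 pDC libraries lie above the 4 cDC libraries for Rpl31 and its copies. For Tbc1d8 the pDC libraries lie above the cDC libraries under vehicle, and the groups overlap under panobinostat.

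The near-identical copies moved with Rpl31. Rpl31-ps9 held 0.545 to 0.570 counts per count of Rpl31 in all 8 libraries, Rpl31-ps11 0.256 to 0.263 and Rpl31-ps12 0.431 to 0.444. They were called in pDC against cDC under vehicle with log2 fold changes of 1.96, 1.98 and 1.97 (adjusted p = 0.0409, 0.0380 and 0.0413). With counts of each member summed with its named copies, Rpl31 had a log2 fold change of 1.97 ± 0.44 under vehicle (adjusted p = 0.0432). Which of these loci the reads came from was not tested. Rpl31 also overlaps the 3′ end of Tbc1d8, a gene on the opposite strand, by 417 bases. Tbc1d8 had 456 and 208 CPM in panobinostat pDC, 439 and 503 in vehicle pDC, 351 and 347 in panobinostat cDC and 357 and 351 in vehicle cDC. Its groups overlapped under panobinostat but not under vehicle, where pDC lay above cDC as for Rpl31, at 0.41 ± 0.35 (edgeR adjusted p = 0.586) and, without panobinostat pDC replicate 2, 0.39 ± 0.15 (adjusted p = 0.0936). The strandedness of the counting is not given in the sources used here.

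To set the shift of the whole group aside, each member's log2 CPM was taken relative to the median member of its library. On this scale Rpl31 stood at 0.87 to 1.25 in pDC and -0.69 to -0.44 in cDC. Rps27 stood at 1.53 to 2.01 in pDC and 0.92 to 1.03 in cDC. Rpl22l1 stood at -1.96 to -1.05 in pDC and -2.30 to -2.19 in cDC. Below the cDC level, Rpsa stood at -0.26 to 0.20 in pDC and 0.63 to 0.81 in cDC. Rps19, a gene mutated in Diamond-Blackfan anaemia in humans, stood at 1.17 to 1.31 in pDC and 1.65 to 1.99 in cDC. Rps12 stood at -2.57 to -1.97 in pDC and -1.64 to -1.33 in cDC. Of the 77 members with at least 10 CPM, Rps2 had the widest range among pDC libraries, at -2.22 to -0.02 in pDC and 0.40 to 1.20 in cDC.

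On this scale the 4 pDC libraries lay above all 4 cDC libraries for 8 members (Rpl22l1, Rpl24, Rpl31, Rps14, Rps21, Rps24, Rps27 and Rps9), where 8.74% of all genes did, and below them for 17, where 20.9% of all genes did. These shares of the 81 members are close to those of all genes. Among the 17 were Rpsa, Rps2, Rps12, Rps19, Rps27a (made as a fusion with ubiquitin), Rpl14, Rpl5 and Rps6. Rpl39l was also among the 17, but it passed the filter on low counts only through vehicle cDC, so nothing is read from it. In a fit with libraries scaled on the ribosomal protein genes themselves, Rpl31 was called in pDC against cDC under vehicle (1.90 ± 0.20, adjusted p = 0.00852), where 3.54% of all genes were. Under panobinostat Rpl31 (1.61 ± 0.19, adjusted p = 0.0120) and Rps27 (1.02 ± 0.22, adjusted p = 0.0495) were called, where 6.85% of all genes were. Without panobinostat pDC replicate 2 the same scaling called Rpl31 and Rps27 higher and Rps19 lower under vehicle (22.7% of all genes) and Rpl31 and Rps27 higher under panobinostat (19.1%), leaving Rpl3l aside.

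**Figure D5:**
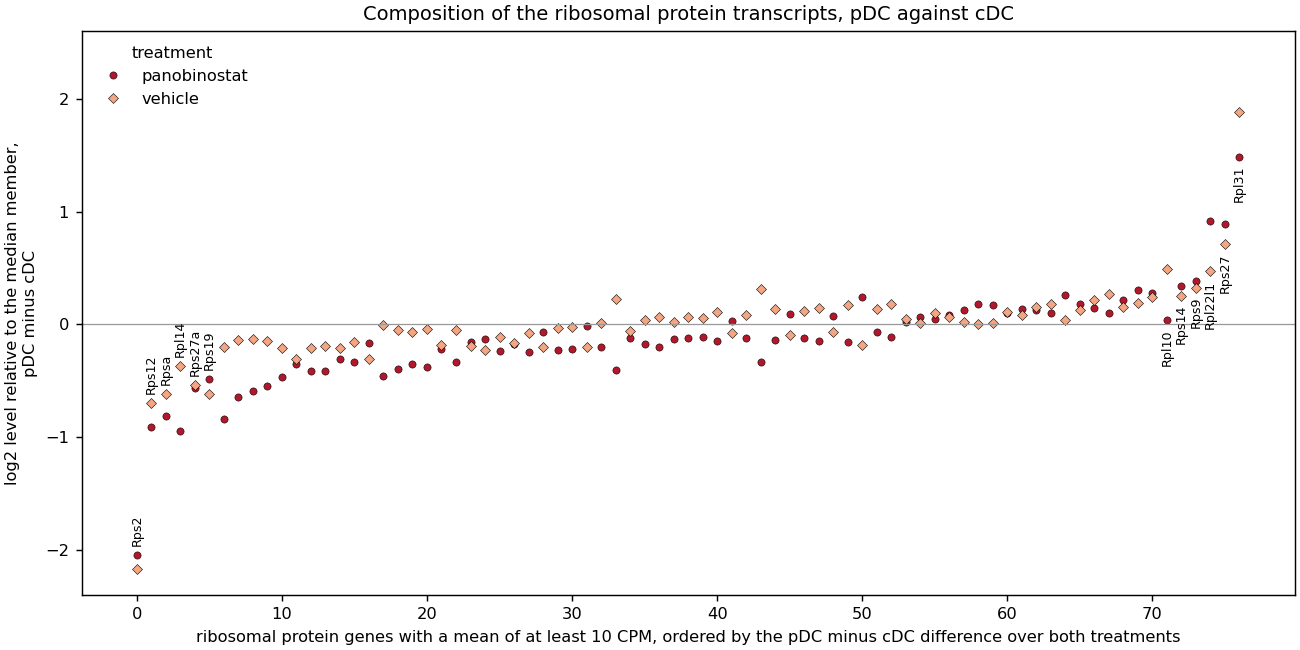
Difference of the log2 level relative to the median member, pDC minus cDC (y axis), for 77 ribosomal protein genes with at least 10 CPM, ordered by their mean difference (x axis), under panobinostat (circles) and vehicle (diamonds). Most members lie near 0, Rpl31 and Rps27 lie above and Rps2 lies below under both treatments.

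Rps27 had 1121 and 3279 CPM in panobinostat pDC, 765 and 1497 in vehicle pDC, 660 and 802 in panobinostat cDC and 575 and 698 in vehicle cDC. Its pDC libraries lay above the cDC libraries within each treatment. With the usual scaling it was not called, at 0.83 ± 0.55 under vehicle (SE, adjusted p = 0.446) and 1.59 ± 0.56 under panobinostat (adjusted p = 0.0972). Rps27rt, with the same coding sequence, had 0.937 to 0.978 counts per count of Rps27 in every library. Rpsa had 324 and 680 CPM in panobinostat pDC, 304 and 427 in vehicle pDC, 530 and 640 in panobinostat cDC and 506 and 571 in vehicle cDC. Its log2 fold change, pDC against cDC, was -0.56 ± 0.37 under vehicle (adjusted p = 0.453). Rps2 had 162 and 296 CPM in panobinostat pDC, 56.6 and 425 in vehicle pDC, 742 and 547 in panobinostat cDC and 607 and 757 in vehicle cDC. Its groups did not overlap under either treatment, and at -1.50 ± 0.84 under vehicle it was not called (adjusted p = 0.356). Rps19 had -0.54 ± 0.41 (0.530) and Rpl10 0.57 ± 0.41 (0.502) under vehicle. Under panobinostat, Rpl22l1 had 1.66 ± 0.61 (adjusted p = 0.11), Rps9 1.01 ± 0.41 (0.138), Rps4x 0.77 ± 0.35 (0.171) and Rps27l 0.85 ± 0.40 (0.190), all uncalled.

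Fixed members not yet described were not called in any comparison. Rpl5 and Rpl11, which with 5S rRNA bind Mdm2, had log2 fold changes of 0.49 ± 0.38 and 0.70 ± 0.46 for panobinostat against vehicle in pDC (adjusted p = 0.576 and 0.498). Rps14 had 0.92 ± 0.49 there (adjusted p = 0.419), Rpl36a 1.01 ± 0.48 (0.381), Rplp1 0.81 ± 0.51 (0.482), Rps29 0.79 ± 0.60 (0.557), Rpl38 0.68 ± 0.47 (0.520) and Rpl37 0.60 ± 0.49 (0.592). Rpl4 had 0.51 ± 0.31 (0.461), Rps6 0.48 ± 0.39 (0.592), Rpl41 0.47 ± 0.41 (0.602), Rpl10 0.37 ± 0.41 (0.690) and Rplp0 0.32 ± 0.29 (0.620). The last 5 lay below the members' median of 0.62. Rps27a had 0.62 ± 0.51 (0.592) and Rpl39 0.75 ± 0.76 (0.659). These 15 values, with panobinostat pDC replicate 2 left out, lay between -0.47 (Rps29) and 0.10 (Rpl36a). Rpl36al, a near copy of Rpl36a outside the symbol rule, had a log2 fold change of 1.24 ± 0.51 for pDC against cDC under panobinostat and was not called (adjusted p = 0.144).

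Sharing of sequence was the rule in this group. Of the 82 members, 79 shared at least 1 window of 50 bases with a transcript of another gene in GENCODE M21, and the median member shared 49.15% of its windows. Rps27 shared 98.6%, Rps2 79.0% and Rpl31 32.9%, while Rpl39l and Rpl3l were among those that shared none. In the count table, 36 IDs are named as copies of members, 23 of them with at least 1000 counts in all. Rpl13-ps6 had 2.34 to 2.45 counts per count of Rpl13 in the 8 libraries. Rpl37rt, a copy of Rpl37, had the most variable ratio of the 23, at 0.664 to 0.826. In addition, 15 members overlap a protein-coding gene on the other strand. A member's level therefore can include or lack reads of its copies.

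Genes that act with the ribosome were set beside the members. For panobinostat against vehicle in pDC, edgeR called 0 genes in any of the following lists, and 2119 of the 14238 genes tested had an unadjusted p under 0.05. The 6 ribosomal protein genes outside the rule, such as Fau and Rack1, had a median of 0.80 and 0 with an unadjusted p under 0.05, and DESeq2 and limma-voom called 0. The 24 other genes with TOP mRNAs had a median of 0.34 and 1 gene with such a p, and DESeq2 and limma-voom called 0. The 77 mitochondrial ribosomal protein genes tested had a median of 0.51 and 13 with such a p, all higher, and DESeq2 called 4 higher and limma-voom 0. The 51 ribosome biogenesis genes had a median of 0.03, with 5 higher and 2 lower at such a p, and DESeq2 called 2 higher and 1 lower and limma-voom 0. The medians without panobinostat pDC replicate 2 were 0.14 for the ribosomal protein genes outside the rule, 0.01 for the TOP genes, 0.11 for the mitochondrial list and -0.01 for biogenesis, with 1 gene called, Gnl3 of biogenesis, lower (4.78% of all genes).

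The 28 translation regulators had a median of -0.45, with 1 higher and 6 lower at an unadjusted p under 0.05, and DESeq2 called 5 lower and limma-voom 0. Among them were Rptor of mTOR complex 1 at -2.28 ± 0.35 (adjusted p = 0.118) and Tsc2, an inhibitor of mTOR signalling, at -1.61 ± 0.31 (0.143). The 16 ribosome surveillance genes had a median of -0.48 and 2 lower at such a p, and DESeq2 called 2 lower and limma-voom 0. The surveillance median without panobinostat pDC replicate 2 was -0.01 with 0 called, and the regulators' median was -0.27 with 5 called lower, Rptor at -2.44 ± 0.32 (adjusted p = 0.0204) and Tsc2 at -1.53 ± 0.29 (0.0433) among them. In cDC edgeR, DESeq2 and limma-voom called 0 genes of these lists, and edgeR gave 0 of them an unadjusted p under 0.05.

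For pDC against cDC under panobinostat, where 18.0% of all genes were called, 4 of 77 mitochondrial ribosomal protein genes were called higher, led by Mrpl37 at 1.22 ± 0.18 (SE, adjusted p = 0.0102). From each list at most 4 called genes per direction are named, those with the smallest p, so the names need not be all genes called. Nap1l1, Pabpc1, Eif4b and Vim of the other TOP genes were called lower, Nap1l1 at -1.61 ± 0.22 (edgeR adjusted p = 0.00804). Emg1, Sbds, Nmd3 and Brix1 of ribosome biogenesis were called higher and Polr1a, the largest subunit of RNA polymerase I, lower (-2.02 ± 0.31, adjusted p = 0.0108). Of the translation regulators, Mtor (-1.89 ± 0.36, adjusted p = 0.0198), Eif2ak4, Eif4g1 and Tsc2 were called lower and Maf1, a repressor of RNA polymerase III, higher. G3bp1 of the surveillance list was lower. Without panobinostat pDC replicate 2, Mrpl37 had 1.07 ± 0.15, Nap1l1 -1.43 ± 0.20, Polr1a -2.39 ± 0.23 and Mtor -1.70 ± 0.29, all still called, while Brix1 (adjusted p = 0.0525) and Maf1 (0.0880) were not. limma-voom called 0 genes of these lists in this comparison. Under vehicle, where 9.73% of all genes were called, Nap1l1 (-1.67 ± 0.22, adjusted p = 0.00875), Polr1a and G3bp1 were lower in pDC and Rps6ka1 higher.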

How the data were processed

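The authors deposited a table of raw counts, with Entrez gene IDs as rows and the 8 libraries as columns. Per the submitters' processing notes, the tools included bcl2fastq (2.17.1.14), FastQC (0.11.6), cutadapt (2.1), HISAT2 (2.1.0), featureCounts of Subread (2.0.0) and limma, with build mm10. How multiply aligned reads were counted, the strand setting and the annotation are not stated. Columns marked D5W were taken as vehicle and those marked LBH as panobinostat (LBH589).

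The counts were tested in R (4.3.3) with edgeR (4.0.16). filterByExpr (minimum count 10, minimum total 15) left 14238 genes, scaled by TMM, with 1 coefficient per group and 4 residual degrees of freedom. Each contrast had a quasi-likelihood F test, p-values were adjusted over all genes (Benjamini-Hochberg), and the fit was tested on simulated counts. DESeq2 (1.42.0) and limma-voom (limma 3.58.1) were alternatives. Coding lengths, coordinates and copies came from GENCODE M21 and RefSeq GRCm38.p6. Members, lists and rules were chosen with earlier results of these data known. Named members were those called, the 6 with the smallest p where fewer than 6 were called, and a fixed set, and others were chosen after their values were seen. Some results for single members are not reported here.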

Additional observations from a re-analysis of the deposited data

How the results depend on the processing

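With the replicate number as a block, 0 members were called for panobinostat against vehicle in pDC, 0 in cDC, 1 for pDC against cDC under vehicle, 1 under panobinostat and 0 for the difference of effects, so the block changed no call among members, while 29 members had an unadjusted p under 0.05 for panobinostat in pDC (2408 of all 14238 genes), against 1 without it (2119). Same-numbered libraries deviated together in all 6 pairs of groups (correlations 0.15 to 0.49), but with 2 libraries per group and no label saying what a number shares, this is a hint from the data and not the design. With a replicate block and GC and length offsets, Rpl31 under vehicle had an adjusted p of 0.0579. For pDC against cDC under vehicle, 1 member was called in the reported fit, 0 with GC and length offsets (6.1% of all genes), 0 with a replicate block and these offsets (4.14%), 3 with limma-voom with quality weights (36.7%), 2 with only the groups compared (32.8%) and 3 when libraries were scaled on the ribosomal protein genes without panobinostat pDC replicate 2 (22.7%). Under panobinostat, the counts were 2 with no filter on low counts (10.5%), 0 with limma-voom (3.32%), 0 with only the groups compared (1.21%), 2 when scaled on the ribosomal protein genes (6.85%) and 3 with that scaling without panobinostat pDC replicate 2 (19.1%). Some of these counts hold Rpl3l or Rpl39l, from whose calls nothing is read. Both scalings on members were added after seeing the data. Leaving out 1 library at a time gave 0 to 57 members called for panobinostat in pDC, 0 to 3 and 0 to 44 for pDC against cDC under vehicle and panobinostat, and 0 to 6 for the difference. The median log2 fold change of the members ranged from -0.35 to 0.40 for pDC against cDC under vehicle, -0.26 to 0.94 under panobinostat and -0.32 to 0.82 for the difference. In the difference of effects, leave-one-out values ran from -0.11 to 1.68 for Rpl22l1, -0.09 to 1.33 for Rps25 and -0.05 to 1.15 for Rpl23, each negative without panobinostat pDC replicate 2. The cause was not tested. With 2 libraries per group, small shifts shared by all members could not be resolved gene by gene, and a library left alone in its group was assumed to vary like the other groups. Over all genes, DESeq2 called 5.98% for panobinostat in pDC, 19.8% and 29.4% for pDC against cDC under vehicle and panobinostat, and 2.05% for the difference, against 0.0913%, 9.73%, 18.0% and 0.00702% with edgeR.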
